A study of Mus musculus with 2 samples.

Results

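Mir21a and Mir31 are miRNA genes associated with growth and repair of epithelia, and their levels were examined in embryonic facial prominence, the tissue that builds the face and jaws, of mice at embryonic day 15.5. The members were chosen by name. They are the 2 rows of the deposited count tables whose Ensembl gene identifier, version ignored, belongs to Mir21a or Mir31 in GENCODE M21, out of 1973 counted miRNA genes. The study profiled small RNA by microRNA sequencing in 1 group of 2 biological replicates of strain B6NCrl, both of mixed sex and described as healthy, with no treatment or mutant allele in the labels. Replicate 1 was a pool of tissue from 78 embryos and replicate 2 a pool from 62 embryos. With a single group, the comparison that the design allows is library against library.

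A miRNA is cut from a hairpin transcript, and its seed, the bases near the 5′ end, pairs with target messenger RNAs and lowers their output. The gene Mir21a gives miR-21, which is raised in wounded and proliferating epithelium and in many carcinomas and is known to repress the growth-restraining gene Pdcd4. It is not restricted to epithelium, since fibroblasts and immune cells also make it. Mir31 gives miR-31, which rises in the growth phase of the mouse hair follicle and in proliferating keratinocytes, and is known in mouse skin to repress Fgf10, a growth factor gene, and Dlx3, a homeobox gene of hair and epidermis.

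The mature products of both hairpins are shown because the seed is the part that sets which targets each miRNA recognises. They were taken from RefSeq (GRCm38.p6, the build called mm10 in the deposited files), where both genes matched by symbol. The capitals mark the seed, bases 2 to 8 from the 5′ end. Both genes lie on the minus strand.
mmu-miR-21a-5p: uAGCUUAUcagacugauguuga
mmu-miR-21a-3p: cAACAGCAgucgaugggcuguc
mmu-miR-31-5p: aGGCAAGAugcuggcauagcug
mmu-miR-31-3p: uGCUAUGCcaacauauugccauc
The 5p product of Mir21a lies at chr11:86584120-86584141 and its 3p product at chr11:86584082-86584103. For Mir31 the 5p product lies at chr4:88910614-88910635 and the 3p product at chr4:88910577-88910599. The 4 seeds differ from one another, so Mir21a and Mir31 belong to different seed families.

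The sequences of the members were set beside those of other miRNA genes. Among 1738 mature miRNAs of the RefSeq table, 32.0% have a seed that a mature miRNA of another gene also carries. Of the 4 products, only miR-21a-5p has such a relative in that table, miR-21c of the gene Mir21c. With only 4 products, this does not set the members apart from the share of all mature miRNAs. The gene Mir21b, whose name places it beside Mir21a, has another seed. Both relatives are shown so that the difference can be seen.
mmu-miR-21b: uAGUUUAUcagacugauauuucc
mmu-miR-21c: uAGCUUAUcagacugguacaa
From the 5′ end, miR-21c equals miR-21a-5p over the first 15 bases and miR-21b over the first 3. The longest stretch that the Mir21a hairpin shares with any other hairpin of the table is also 15 bases, and for the Mir31 hairpin it is 12 bases, with Mir7686. How long such stretches are over all hairpins was not examined. Mir21b and Mir21c had 0 reads in both libraries, so no read was counted for another Mir21 gene. A count of 0 allows up to 3 reads, which covers counting error only.

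Both hairpins lie apart from other counted miRNA genes and overlap the last exon of a longer transcript on the same strand. Mir21a (ENSMUSG00000065455.1) lies at chromosome 11, 86584067 to 86584158, within exon 12 of 12 of the protein-coding transcript Vmp1-201, in its 3′ untranslated region and 202 bases from the annotated transcript end. The other annotated transcripts of Vmp1 do not reach the hairpin. Vmp1 encodes a membrane protein of the endoplasmic reticulum with a role in autophagy. Mir31 (ENSMUSG00000065408.1) lies at chromosome 4, 88910557 to 88910662, within exon 3 of 3 of the long noncoding transcript AL805899.1-201 and 702 bases from its end. No other counted miRNA gene lies within 100000 bases of either member. The nearest are Mir301, 528846 bases from Mir21a, and Mir491, 788432 bases from Mir31. How many other counted genes lie as far apart was not examined. The Mir21a hairpin has 92 bases and the Mir31 hairpin 106, and in structures predicted with RNAfold 19 of the 22 bases of miR-21a-5p and 18 of the 22 bases of miR-31-5p were paired.

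The libraries held 5840705 reads in replicate 1 and 14085643 in replicate 2, of which 2978463 and 6408008 were assigned to miRNA genes. Reads that mapped to several places made up 30.6% and 29.7% of all reads and were given to no gene. Shares of the miRNA reads given below are therefore shares of the assigned reads. Genes with several copies may stand too low in level and rank. Of the 1973 genes, 333 had at least 10 reads in each library and are called detected here, and both members were among them. Levels are in CPM, reads of a gene per 1000000 reads assigned to miRNA genes, with library sizes scaled by TMM factors. A read stands for a small RNA molecule over its whole length, so no scaling by gene length was made. The counts are per hairpin and do not tell the 5p from the 3p product.

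Mir21a was an abundant gene and nearly equal in both libraries. It had 17622 reads in replicate 1 and 36921 in replicate 2, which gave 5896 CPM and 5782 CPM. Its mean was 5839 ± 80.6 CPM (SD, n = 2), a coefficient of variation of 1.38%. Counting error alone gives 0.753% for the reads of replicate 1 and 0.520% for those of replicate 2. Mir21a took 0.592% of the miRNA reads in replicate 1 (95% Clopper-Pearson interval 0.583 to 0.600) and 0.576% in replicate 2 (0.570 to 0.582). It ranked 37 of the 333 detected genes by mean level, at 32.4 times the median detected gene, and ranked 36 and 39 in the single libraries.

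Mir31 was lower and less even. It had 2268 reads in replicate 1 and 3436 in replicate 2, which gave 759 CPM and 538 CPM. Its mean was 648 ± 156 CPM (SD, n = 2), a coefficient of variation of 24.1%, against 2.10% and 1.71% from counting error alone. The spread between the libraries was thus many times the counting error, and replicate 1 was the higher. Mir31 took 0.0761% of the miRNA reads in replicate 1 (95% Clopper-Pearson interval 0.0730 to 0.0793) and 0.0536% in replicate 2 (0.0518 to 0.0554). It ranked 120 of 333 by mean level, at 3.60 times the median detected gene, and ranked 115 and 122 in the single libraries.

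All but 1 read of Mir21a in each library lay on the strand of the gene, with 17621 of 17622 reads in replicate 1 and 36920 of 36921 in replicate 2. Mir31 had no read on the opposite strand in either library. The counts of both members therefore do not rest on reads from an opposite transcript.

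Reads of Mir21a exceeded those of Mir31 by 7.77 times in replicate 1 and by 10.7 times in replicate 2, with a mean of 9.26 ± 2.10 (SD, n = 2). This ratio needs no scaling between libraries. Mir21a was the higher gene in both, and the 2 ratios differed beyond counting error (two-sided Fisher's exact test, p = 2.77e-29). The change of the ratio was 1.38-fold from replicate 1 to replicate 2, and in CPM Mir21a differed 1.02-fold between the libraries while Mir31 differed 1.41-fold.

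The libraries were then compared gene by gene to ask how far each member differed between the pools of embryos. The split of a gene's reads over the libraries was set against that of the TMM-scaled library sizes in an exact binomial test, two-sided, with Benjamini-Hochberg adjustment over all 333 detected genes and a threshold of 0.05. With a single library on each side there is no replicate error to test against, so a call means a difference between these libraries beyond counting error. A permutation test that exchanges 2 libraries allows no p below 0.5, and reaches 0.5 only if it is one-sided. The background is high, since 178 of the 333 genes, or 53.5%, passed, and 27.6% passed as higher in replicate 1. By size, 10.8% of detected genes differed by over 1.5-fold, and 3.3% did so with replicate 1 higher.

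Mir31 was higher in replicate 1 by 1.41-fold (95% interval 1.34 to 1.49, counting error only). On the log2 scale its ratio of replicate 2 over replicate 1 was −0.50 (−0.57 to −0.42, exact binomial adjusted p = 3.25e-35). Mir31 passed the test, as did 53.5% of all detected genes, and it stayed inside 1.5-fold. Its difference was the 57th largest of 333 in size, against a median size of 0.20 for all detected genes. Among the 46 other detected genes within 2-fold of its mean level, the median size was 0.19, 34 passed the test and 3 had a larger difference than Mir31. These 3, named after their values were seen, were Mir10a (log2 ratio 1.34), Mir92b (0.79) and Mir376c (−0.62), so in that range only Mir376c had a lower ratio than Mir31.

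Mir21a had a log2 ratio of −0.03 (95% interval −0.05 to −0.002) and did not pass after adjustment (exact binomial p = 0.0330, adjusted p = 0.0604). As a fold, replicate 1 stood 1.02 times above replicate 2, with an interval from 1.00 to 1.04. The difference was the 308th largest of 333. Of the 37 other detected genes within 2-fold of its level, 33 passed the test and 34 had a larger difference. The 4 that did not pass, named after their values were seen, were Mir30a (0.01), Mir382 (−0.03), Mir125a (−0.01) and Gm25301 (0.01). With total-count scaling in place of TMM factors Mir21a passed (log2 ratio −0.04, exact binomial adjusted p = 0.00771), and with DESeq2 size factors its log2 ratio was 0.000196 with an adjusted p of 1. The call for Mir21a thus depended on how the libraries were scaled.

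**Figure D1:**
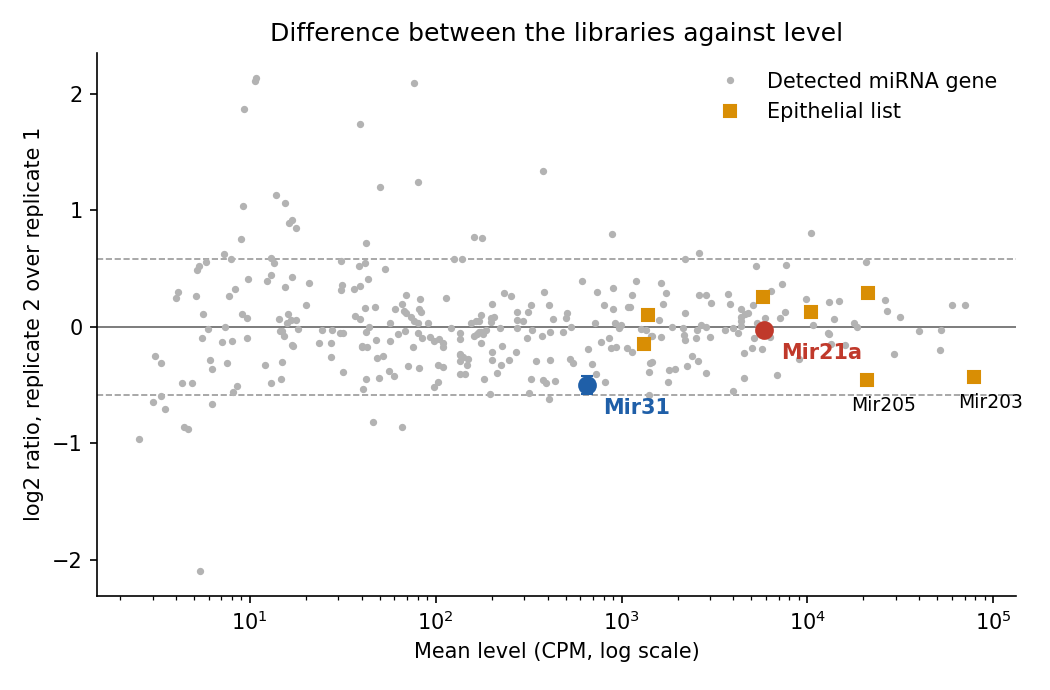
Difference of the libraries (log2 ratio of levels, replicate 2 over replicate 1) against mean level (CPM, log scale), with grey points for detected genes, squares for the 7 epithelial genes, coloured points with 95% intervals from counting error for the members, and dashed lines at 1.5-fold. Mir21a lies at −0.03 and Mir31 at −0.50, beside Mir205 at −0.46 and Mir203 at −0.43.

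Against 7 miRNA genes of epithelial identity, Mir21a stood in the middle of the order of levels and Mir31 at its end. By mean level the order was Mir203, Mir429, Mir205, Mir200c, Mir21a, Mir200b, Mir141, Mir200a and Mir31. Mir203 promotes keratinocyte differentiation and Mir205 marks stratified epithelium, while Mir429, Mir141 and the Mir200 genes hold epithelial identity by repressing Zeb1 and Zeb2. Mir21a and Mir200b did not differ beyond their spread, at 5839 ± 80.6 and 5800 ± 732 CPM (SD, n = 2). Their order was opposite in the libraries, with Mir200b at 5282 CPM in replicate 1 and 6317 CPM in replicate 2. Mir429 and Mir205 (21303 ± 3037 and 20992 ± 4643 CPM) and Mir141 and Mir200a (1396 ± 70.7 and 1327 ± 96.2 CPM) were also within their spread. The hairpins of Mir141 and Mir200a share a stretch of 17 bases, so their levels and the ratios to them are less certain. Mir31 was below all 7 in both libraries. Reads of Mir31 equalled 0.499% of the summed epithelial level in replicate 1 and 0.419% in replicate 2, and those of Mir21a 3.88% and 4.50%.

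**Figure D2:**
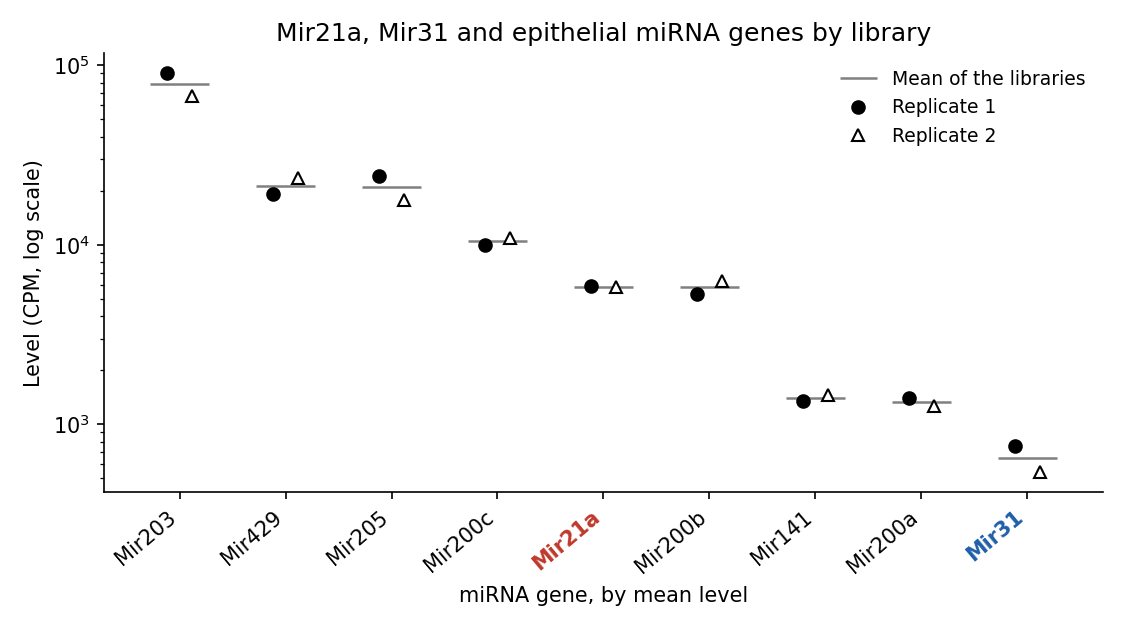
Level of the members and of 7 epithelial miRNA genes (CPM, log scale) in replicate 1 (filled circles) and replicate 2 (open triangles), with a grey line at the mean of both. Mir21a is nearly equal in the libraries, at 5896 and 5782 CPM, while Mir31, Mir203 and Mir205 are higher in replicate 1.

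Reads of Mir31 stood in nearly the same ratio to those of Mir203 and Mir205 in both pools, which restates that the log2 ratios of these genes lay close together. Reads of Mir31 equalled 0.838% of those of Mir203 in replicate 1 and 0.798% in replicate 2, and 3.13% and 3.04% of those of Mir205. The log2 change of the ratio was −0.07 to Mir203 (95% interval −0.15 to 0.007) and −0.04 to Mir205 (−0.12 to 0.04), so neither change was detectable at this depth. Such a match was not limited to epithelial genes. Of the 119 detected genes at or above the level of Mir31, 8 had an interval that held 0, or 6.72%, and besides Mir203 and Mir205 these were Mir15b, Mir210, Mir483, Mir381, Mir154 and Mir27b, named after their values were seen. Over all 332 other detected genes the share was 22.0%, which includes genes with few reads and wide intervals. To the other 5 epithelial genes the ratio of Mir31 was lower in replicate 2, from −0.35 to Mir200a (−0.44 to −0.25) to −0.79 to Mir429 (−0.87 to −0.71). These intervals come from counting error alone, and 14 ratios were examined, 7 for each member, after the values of the epithelial genes were known.

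Mir21a showed no such match to any of the 7 genes, while 5 of the 36 detected genes above it did, or 13.9%. These were Mir335, Mir140, Mirlet7g, Mir411 and Gm25927. Mir21a has more reads than Mir31 and so narrower intervals. A change of a given size can thus be a match for Mir31 and none for Mir21a, and their shares of matches are not directly comparable. Its ratio to Mir203 was higher in replicate 2 by a log2 change of 0.40 (95% interval 0.37 to 0.42) and its ratio to Mir205 by 0.43 (0.40 to 0.46). Its ratio to Mir429 was lower by −0.32 (−0.35 to −0.29) and that to Mir200b by −0.29 (−0.32 to −0.25). The smallest change was to Mir200a, at 0.12 (0.06 to 0.18). Of the 7 epithelial genes themselves, 4 were higher in replicate 2 and 3 in replicate 1 by the exact binomial test, which 53.5% of all detected genes and 33 of the 37 genes near the level of Mir21a passed. Their median log2 ratio was 0.10 against −0.02 over all detected genes. Scaled to all sequenced reads, Mir200c (−0.04) and Mir141 (−0.07) turned to replicate 1, which made the split 2 to 5, while the read ratios do not depend on scaling. In tissue pools, fewer cells of a type and less RNA per cell cannot be told apart, and the part of tissue composition in the ratios of Mir31 was not tested.

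**Figure D3:**
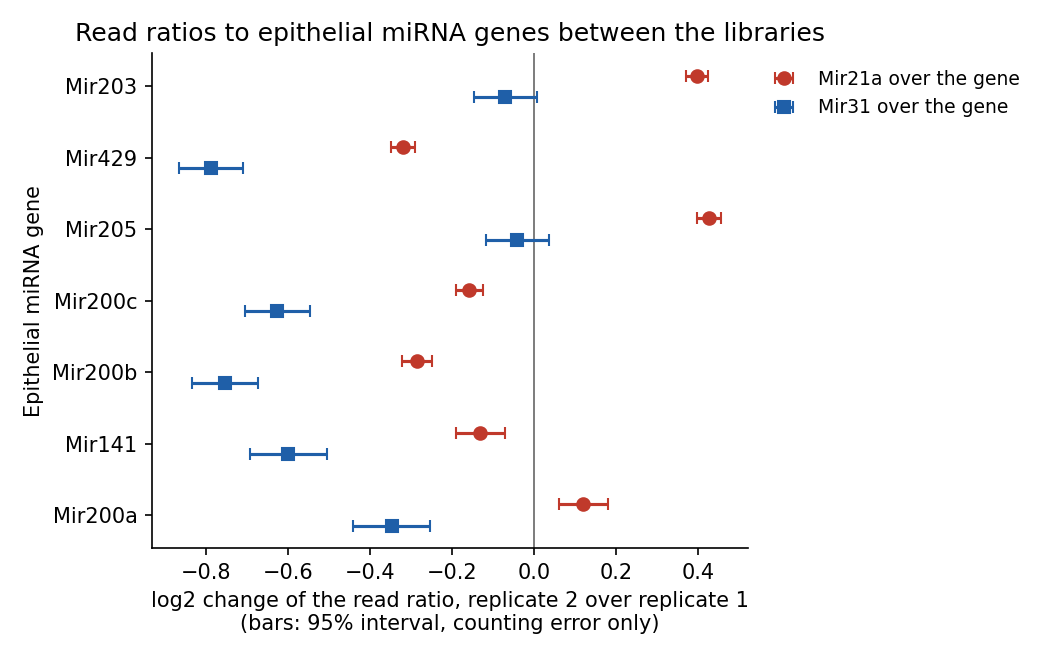
Log2 change, from replicate 1 to replicate 2, of the read ratio of Mir21a (circles) and Mir31 (squares) to each of 7 epithelial miRNA genes, with bars for 95% intervals from counting error. The Mir31 intervals hold 0 for Mir203 and Mir205 and lie below it for the other 5, while no Mir21a interval holds 0.

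The genes with the pattern most like each member were found by distance in log2 CPM over both libraries, a measure that the scaling between libraries does not change. For Mir21a the nearest were Mir10b (distance 0.08), Gm25927 (0.09) and Mirlet7b (0.13). Mir10b, a gene of the Hox clusters, had 5771 CPM in replicate 1 and 6075 CPM in replicate 2. All reads of Gm25927, 18439 in replicate 1 and 38407 in replicate 2, lay on its opposite strand, where RefSeq places Mirlet7e. Mirlet7b, of the let-7 family that restrains growth, stood at 6033 and 5301 CPM, and its hairpin shares 19 bases with Mirlet7c-2, so its level is less certain.

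For Mir31 the nearest were Mir341 (distance 0.21), Mir142b (0.23) and Mir210 (0.26), farther than the neighbours of Mir21a. Mir341, an imprinted gene of chromosome 12, had 771 CPM in replicate 1 and 620 CPM in replicate 2. Mir142b had 707 and 619 CPM, and all its reads lay on the opposite strand, where RefSeq places Mir142, a miRNA of blood cells. Mir210, which is induced by hypoxia, had 834 and 629 CPM. Their log2 ratios were −0.32, −0.19 and −0.41, and the choice by distance favours ratios near that of Mir31. By rank the next gene above Mir31 was Mir142b and the next below was Mir181b-2, which at 528 and 694 CPM was higher in replicate 2, so that it stood below Mir31 in replicate 1 and above it in replicate 2. Its hairpin shares 26 bases with Mir181b-1, so its level is uncertain.

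Other miRNA genes linked to growth were spread over a wide range of levels around the members. Of 14 growth-associated genes, 12 were matched by symbol and all 12 were detected. The list includes the Mir17 cluster and its paralogs Mir106b, Mir93 and Mir25. Other paralogs, such as Mir106a, are not in it. Mir18a and Mir92a-1 were missed because the counts hold them as Mir18 (2566 ± 370 CPM) and Mir92-1 (2393 ± 288 CPM, SD, n = 2). Both were detected and higher in replicate 1 by the exact binomial test (log2 ratios −0.30 and −0.25). They are in none of the numbers of this list, so its sum is too low and shares of it too high. Of the 12 matched genes, 3 were higher in replicate 2, 5 in replicate 1 and 4 did not pass. Over all detected genes 53.5% passed. The median log2 ratio was −0.06 against −0.02 over all detected genes. The summed level was 35828 ± 697 CPM (SD, n = 2), led by Mir17, the head of its cluster, at 13014 ± 1350 CPM. Higher in replicate 2 were Mir17 (log2 ratio 0.21), Mir10b (0.07) and Mir20a (0.05). Higher in replicate 1 were Mir19a (−0.53), the hypoxia gene Mir210 (−0.41), Mir221 (−0.33), Mir106b (−0.23) and Mir93 (−0.09). Mir155, Mir19b-1, Mir25 and Mir222 did not pass, with log2 ratios of 0.27, 0.11, −0.04 and −0.14. These genes were named after their values were seen. Mir21a equalled 16.7% of this sum in replicate 1 and 15.9% in replicate 2, and Mir31 2.15% and 1.48%. Of 13 growth-restraining genes, among them let-7 and Mir34 genes, all were detected. In this list 6 were higher in replicate 2, 4 in replicate 1 and 3 did not pass, beside the same 53.5% of detected genes, and the median log2 ratio was 0.04. The genes of both lists are mostly abundant, and at high read numbers small differences pass a test of counting error. The 4 higher in replicate 1 were Mir34a, a p53 target (log2 ratio −0.48), Mir145a (−0.21), Mirlet7b (−0.19) and Mirlet7g (−0.03), and those that did not pass were Mir34b (0.35), Mirlet7c-1 (0.04) and Mir15a (−0.001). The sum of the growth-restraining genes was 166568 ± 6244 CPM (SD, n = 2), led by Mirlet7i at 70479 ± 6533 CPM. Mirlet7a-1, Mirlet7c-1, Mir16-1 and Mir19b-1 of these lists, and Mir92-1, have further copies in the genome. Reads that mapped to several places were given to no gene, so the levels and calls of these genes are less certain.

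Markers of other cell types were present beside the epithelial ones, which bears on the tissue label and on Mir21a, a gene that several of these types make. The files count miRNA genes only, so the label could not be compared with messenger RNA markers. Mesenchyme genes (6 of 6 detected) had a summed level of 18421 CPM in the first replicate and 16971 CPM in the second, led by Mir214 (log2 ratio −0.16). Of its 6 genes, 4 were higher in replicate 2 and 1 in replicate 1 by the exact binomial test, with a median log2 ratio of 0.24. Of all 333 detected genes, 86 were higher in replicate 2 and 92 in replicate 1, with a median of −0.02. The endothelial Mir126a had 24156 and 28414 CPM. Leukocyte genes (5 of 7 matched by symbol, all 5 detected) summed to 3628 and 4094 CPM, led by Mir342, a sum lower than the level of Mir21a alone. Of these 5, 2 were higher in replicate 2, 1 in replicate 1 and 2 did not pass the exact binomial test. Over all detected genes 53.5% passed. Mir146a, which the counts hold as Mir146 (97.4 ± 5.58 CPM, SD, n = 2), is not in this sum. Striated muscle genes (8 of 9 counted, 4 detected) summed to 8091 and 6087 CPM, led by Mir206, and both Mir133a genes had 0 reads. The Mir133a genes give the same mature miRNA, and reads that mapped to several places were given to no gene, so the 0 does not show absence and the sum may be too low. Mir199a-1 and Mir199a-2 of the mesenchyme list are also copies with the same mature miRNA. The mesenchyme sum, its direction, its lead by Mir214 and the counts and median of that list are therefore less certain. Cartilage genes (3 of 3 detected) summed to 15429 and 14482 CPM, led by Mir140. Epithelial genes summed to 152004 and 128519 CPM. The epithelial, mesenchyme, striated muscle and cartilage sums were higher in replicate 1, as Mir31 was. The leukocyte sum and Mir126a, the single endothelial gene, were higher in replicate 2. Each sum is carried largely by its leading gene. Their part in the levels of the members was not tested.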

How the data were processed

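Each library came as a table of raw counts by miRNA hairpin, made by the authors on mm10 with GENCODE M4, per the deposited file list and the labels, with columns for reads on either strand, the strand of the gene and the opposite strand. Which aligner and counter made the tables is not given in the sources used here. Lines that name no gene held 49.0% of the reads in replicate 1 and 54.5% in replicate 2 and stayed out of library sizes. Names came from GENCODE M21 on the same build, which matched 1894 of 1973 identifiers. Positions are 1-based.

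Reads on either strand were scaled with TMM factors over the detected genes (edgeR 4.0.16, R 4.3.3). The exact binomial and Fisher tests were run in scipy 1.17.1 (Python 3.11.15). The binomial test was checked on data simulated with counting error only, which the test itself assumes. That check does not show how the test behaves with further variation between libraries. Intervals cover only the counting error of reads taken as independent. The labels name no molecular identifiers, so reads cannot be taken as independent molecules, and the intervals may be too narrow. DESeq2 1.42.0 size factors were an alternative. Replicates are separate pools of embryos per the labels, so their spread joins biological and technical variation.

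The members and lists were chosen with earlier results of these data known. Genes were named by a rule: the members, the 3 nearest genes in log2 CPM, the neighbours in rank, seed relatives, overlapping genes and the leading gene of each list. The 7 epithelial genes were also named singly, after their values were seen. No sequence of Mir590, listed as a seed relative, was used here.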

Additional observations from a re-analysis of the deposited data

How the results depend on the processing

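The direction and call of Mir31 held under all 8 alternatives tried, with log2 ratios from −0.67 to −0.47. The call of Mir21a did not: it passed with total-count scaling (log2 ratio −0.038), with at least 100 reads in each library (−0.028, exact binomial adjusted p = 0.0492, 247 genes tested) and per 1000000 of all reads (−0.20), and its sign turned with DESeq2 size factors (0.000196). The exact binomial adjusted p of Mir21a ranged from 1.50e-51, when scaled to all reads, to 1, with DESeq2 size factors, over its 9 alternatives. Both ends thus came from a change of scaling, and why the scalings differ was not tested. Scaling to all reads moved the median log2 ratio of all detected genes by −0.17 and the calls from 86 higher in replicate 2 and 92 in replicate 1 to 49 and 160, a shift that is the same for every gene. The level of Mir21a was 6040 CPM from reads on the strand of the gene, 6341 CPM with Mir203 left out and 2819 per 1000000 of all reads, where Mir31 stood at 316, because the denominators differ. Leaving out each replicate in turn gave 5782 to 5896 CPM for Mir21a, 538 to 759 CPM for Mir31 and 7.77 to 10.7 for their read ratio, values with no test. Between 166 and 186 genes passed under the 6 alternatives for that count, against 178. The 7 epithelial genes kept direction and call under 7 alternatives each, except Mir200c (−0.045) and Mir141 (−0.071), whose direction turned when scaled to all reads. TMM factors over all counted genes, and the scaling to all reads for the epithelial genes, were chosen after seeing the data. No paired analysis was possible because there is a single group. At this depth 3 reads correspond to about 1 CPM or less, far below both members.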
